A study of Mus musculus with 6 samples.

Results

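The genes described here are 7 mouse genes of lipid transport, *Apoe*, *Clu*, *Apod*, *Abca1*, *Abcg1*, *Lcat* and *Lrp1*, chosen by name from the 32285 genes of a single-cell RNA-Seq count table. All 7 were found in the table. They were followed across the annotated cell types, the astroglial sub-clusters, the pseudotime bins and the 2 ages of the study. The cells came from the striatum of wild type male C57BL/6 mice at postnatal day 3 (P3, 3 libraries) and at 3 months (3m, 3 libraries). No treatment was given. They were enriched with magnetic beads for the astrocyte surface antigen ACSA2, from brains of several animals pooled per preparation, with the subventricular zone left out. RNA molecules were counted as UMIs (unique molecular identifiers, short tags that mark each captured molecule) with a droplet kit that reads transcript 3′ ends. The annotated table holds 14373 cells in 24 clusters, of which 9992 were re-clustered by the study as astroglia into 17 sub-clusters, numbered 0 to 16, and 5879 carry a pseudotime bin.

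In the brain, astrocytes release most of the lipoproteins. Apolipoproteins form the protein coat of these particles, ABC transporters in the cell membrane load them with cholesterol and phospholipid, lecithin-cholesterol acyltransferase matures them by esterifying the cholesterol, and receptors of the LDL receptor family take them up. Immature astrocytes at P3 still divide, while those of the adult do not, and the comparison of the ages asks which parts of this system change as striatal astrocytes mature.

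The carriers are *Apoe* (apolipoprotein E, the main brain apolipoprotein, chr7:19696109-19699188, minus strand, GRCm38), *Clu* (clusterin or apolipoprotein J, a secreted chaperone that binds lipid, chr14:65968483-65981547, plus strand) and *Apod* (apolipoprotein D, a lipocalin for small hydrophobic ligands, chr16:31296192-31314808, minus strand). *Abca1* (chr4:53030787-53159895, minus strand) moves cholesterol and phospholipid onto lipid-poor apolipoproteins, and *Abcg1* (chr17:31057675-31117988, plus strand) passes sterol to particles already formed. *Lcat* (chr8:105939551-105943382, minus strand) encodes the acyltransferase. *Lrp1* (chr10:127538161-127621148, minus strand) encodes a large endocytic receptor that binds apolipoprotein E among many ligands. All 7 are annotated as protein-coding.

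*Abca1* and *Lrp1*, a transporter and a receptor, had log2 fold changes close to each other in all astroglia (0.24 and 0.25) and in sub-clusters 0, 1 and 9 against 7 and 14 (-0.58 and -0.51), although their levels differed over cell types, so the 250 bases before their annotated starts are shown. The sequences are RefSeq's for GRCm38.p6, read 5′ to 3′ on the gene's own strand, and capitals mark letters of the motifs searched on both strands. Those motifs were the GC box (GGGCGG), the TATA box (TATAAA), the E-box (CACGTG) and the CCAAT box (CCAAT).
Abca1, chr4:53159896-53160145, minus strand: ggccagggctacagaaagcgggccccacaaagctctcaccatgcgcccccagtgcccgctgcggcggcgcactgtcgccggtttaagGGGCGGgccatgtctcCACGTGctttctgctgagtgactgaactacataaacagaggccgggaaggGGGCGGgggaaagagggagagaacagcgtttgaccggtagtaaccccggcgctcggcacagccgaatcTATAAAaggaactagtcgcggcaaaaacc
Lrp1, chr10:127621149-127621398, minus strand: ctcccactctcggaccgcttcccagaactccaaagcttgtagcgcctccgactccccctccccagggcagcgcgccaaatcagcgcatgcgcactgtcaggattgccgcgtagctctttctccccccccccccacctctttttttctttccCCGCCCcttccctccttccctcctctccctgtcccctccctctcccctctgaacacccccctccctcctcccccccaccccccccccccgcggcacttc
The *Abca1* window held 2 GC boxes, 1 E-box and 1 TATA box, and the *Lrp1* window held 1 GC box on the opposite strand. Of 32851 promoters of this length, 32.7% held a GC box, 12.4% a TATA box, 6.02% this E-box and 33.8% a CCAAT box. A promoter was on hand for 5 of the 7 genes. These matches describe letters in a window and were not tested against expression.

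The P3 libraries held 32193875, 37795021 and 35629869 UMIs, and the 3m libraries 10522151, 7144779 and 5471573. Astroglial cells numbered 1985, 3103 and 3786 at P3 and 213, 546 and 359 at 3m, with median depths of 5456 to 9665 UMIs at P3 and 2977 to 5326 at 3m. The replicate 1 libraries stood apart within both ages: 1156 of the P3 replicate 1 astroglia lay in sub-cluster 1 and 182 of the 3m replicate 1 astroglia in sub-cluster 14, which held 29, 26, 0 and 2 cells of the other replicates of those ages. Summed markers of astrocytes reached 14366 to 15178 CPM (UMIs of a gene scaled to a common total per library) in 3m astroglia and 4820 to 5778 CPM in P3 astroglia. Summed oligodendrocyte markers were at 852 to 2127 CPM in 3m astroglia and 126 to 146 CPM in P3 astroglia, with 6 of 6 markers detected in every 3m library. The median share of mitochondrial UMIs in astroglia was 8.18%, 5.97% and 6.05% in the 3m libraries and 2.47%, 1.74% and 1.27% in the P3 libraries. Of 14345 barcode sequences, 28 occurred in more than 1 library.

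Each gene had its own distribution over cell types, and only *Lcat* was nearly confined to astroglia by level. The values are CPM of the UMIs summed over the cells of a type in a library with at least 10 such cells, given as mean ± SD over libraries. The types come from the study's own annotation, which was built from the same expression values, so these levels are a description without a test. *Apoe* was highest in 3m astrocytes (23398 ± 6750 CPM, n = 3), followed by P3 astrocytes (13252 ± 3245 CPM, n = 3) and by microglia, the brain's macrophages, at 3m (11981 ± 2930 CPM, n = 3) and at P3 (11028 ± 3295 CPM, n = 3). The ranges of 3m and P3 astrocytes did not overlap, while those of P3 astrocytes and of both sets of microglia did. Glial progenitors had 3851 ± 754 and 3666 ± 934 CPM in their 2 clusters, oligodendrocytes 2242 ± 377 CPM, and the main P3 endothelial cluster, END_7, 408 ± 78.3 CPM. Because astroglia were 26.6% to 39.0% of the annotated cells at 3m against 75.1% to 85.4% at P3, their share of all *Apoe* UMIs was 70.8% to 81.4% at 3m and 95.4% to 97.6% at P3. Oligodendrocytes held 14.9% to 23.8% of the 3m *Apoe* UMIs.

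*Clu* was steeper. Its mean level was 8450 ± 1182 CPM in 3m astrocytes, 1652 ± 238 CPM in the P3 astrocyte cluster AST_P3_19, 1067 ± 501 CPM in the main P3 astrocytes, 224 ± 92.0 CPM in oligodendrocytes and 13.7 ± 11.5 CPM in END_7. The cluster LOW_23, which the study left without a cell type name, reached 6415 CPM at 3m in 14 cells of a single library. *Lcat* stood at 249 ± 49.0 CPM in 3m astrocytes and 17.9 ± 7.42 CPM in P3 astrocytes, and no other type exceeded 8.07 CPM. Oligodendrocytes, with 6.27 ± 1.116 CPM of *Lcat*, had 1.9% to 3.3% of the astroglial level of their own library.

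*Apod* and *Abcg1* lay mostly outside astroglia. *Apod* was highest in oligodendrocytes (3074 ± 1106 CPM at 3m, n = 3), ahead of END_7 (492 ± 136 CPM), the 3m endothelial cluster END_17 (278 ± 135 CPM) and P3 pericytes (85.4 ± 21.7 CPM), and the ranges of oligodendrocytes and END_7 did not overlap. Oligodendrocytes held 95.3% to 98.5% of all *Apod* UMIs at 3m. At P3, where the annotation lists no oligodendrocytes, endothelial clusters held 94.5% to 96.0%. *Abcg1* had overlapping ranges in oligodendrocytes (120.4 ± 17.0 CPM), END_7 (101 ± 22.1 CPM), P3 microglia (84.2 ± 37.7 CPM) and 3m microglia (81.4 ± 26.3 CPM). In astrocytes it was at 4.44 ± 2.39 CPM at P3 and 0.915 ± 1.58 CPM at 3m. The partner transporter *Abca1* was instead found at like levels in microglia (208 ± 77.6 CPM at 3m and 179 ± 36.2 CPM at P3), P3 astrocytes (161 ± 47.1 CPM), END_7 (155 ± 76.1 CPM) and 3m astrocytes (139 ± 20.6 CPM), whose ranges overlapped, and at 23.2 ± 1.78 CPM in oligodendrocytes. *Lrp1* was broadest. Its highest mean was 287 ± 140 CPM in 68 cells at 3m of LOW_21, a cluster without a cell type name. Among named types it was at 206 ± 76.3 CPM in oligodendrocyte precursors and 195 ± 16.02 and 184 ± 24.3 CPM in P3 and 3m microglia. It was at 163 ± 30.6 CPM in pericytes, 162 ± 26.3 CPM in P3 and 143 ± 40.6 CPM in 3m astrocytes. Its lowest named type was oligodendrocytes (9.14 ± 5.98 CPM). CPM is a share of the captured RNA of a type, so a lower value and more RNA of other genes cannot be told apart.

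**Figure D1:**
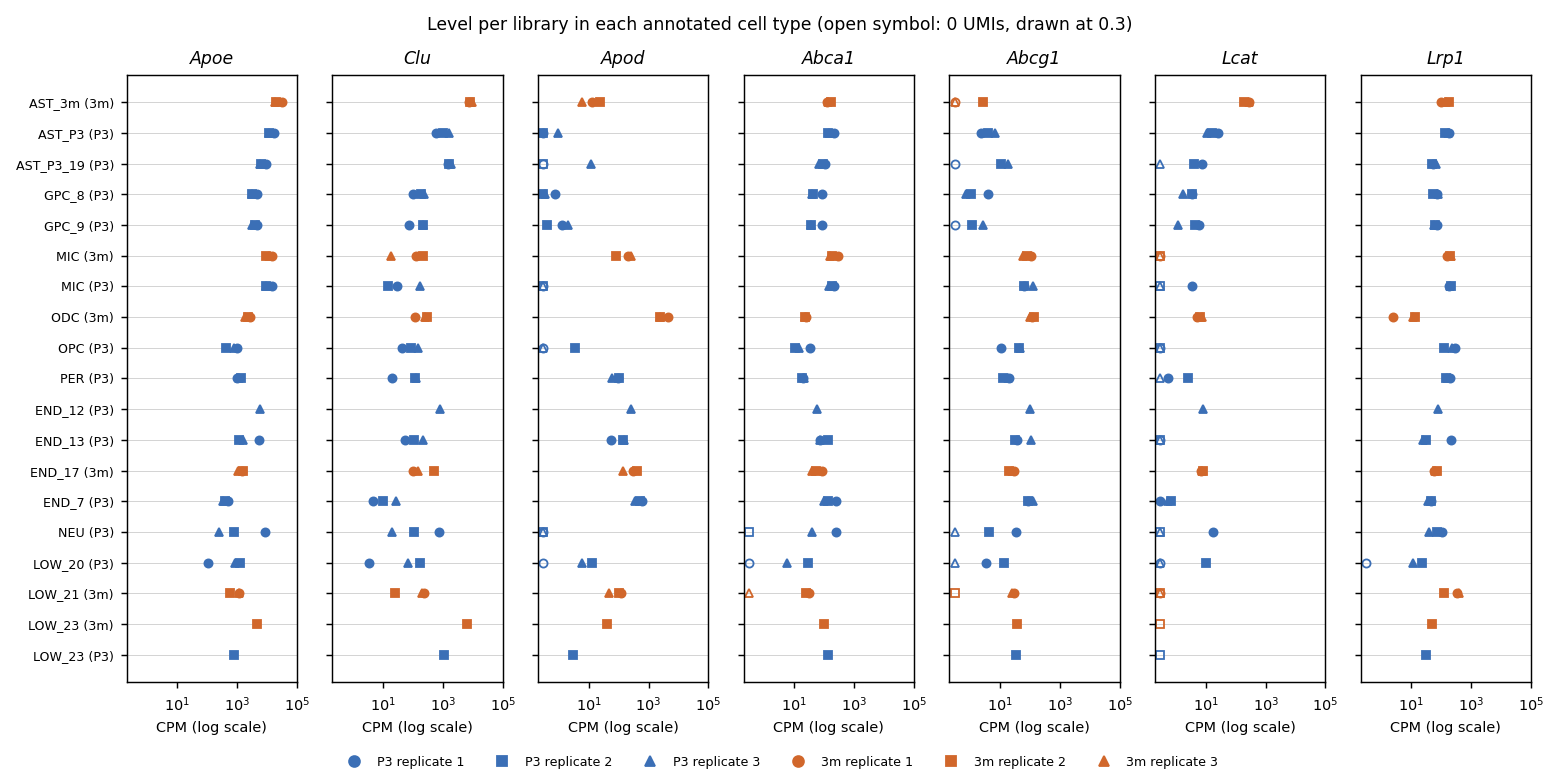
Level of each of the 7 genes (CPM of summed UMIs, log scale) in each annotated cell type, with the age of the cells in brackets. Each point is 1 library with at least 10 cells of the type, blue for P3 and orange for 3m, and open symbols are 0 UMIs drawn at 0.3. Lcat sits high only in the astrocyte rows, Apod is highest in the oligodendrocyte row (mean 3074 CPM), and Lrp1 is spread over most types with oligodendrocytes low (mean 9.14 CPM).

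By a rule applied to every gene, the genes whose levels most resembled each member over 18 sums of cell type and age were listed from 3115 genes, with Pearson's r of log2(CPM + 10). They were *Sdc4* (0.88) and *Cst3* (0.87) for *Apoe*, *Id4* (0.91) and *Fxyd1* (0.90) for *Clu*, *Card19* (0.87) and *Mal* (0.83) for *Apod*, *Sat1* (0.76) and *Cyfip1* (0.75) for *Abca1*, *Card19* (0.81) and *Slc38a2* (0.81) for *Abcg1*, *Ntsr2* (0.89) and *Cldn10* (0.84) for *Lcat*, and *Cd302* (0.90) and *Pid1* (0.86) for *Lrp1*. The 18 sums share libraries and depths, so these r values are a description. *Sdc4* encodes a surface proteoglycan, *Cst3* a secreted protease inhibitor and *Mal* a myelin protein. *Apod* and *Abcg1* shared *Card19* as their nearest gene.

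In astroglia as a whole, 4 of the 7 genes were called higher at 3m: *Clu*, *Lcat*, *Apod* and *Apoe*. A call needs an adjusted p of at most 0.05 (Benjamini-Hochberg, edgeR's quasi-likelihood test over 13530 genes) and at least a 2-fold difference. Of all genes tested, 15.8% were called higher and 16.3% lower at 3m. *Clu* was at 487, 813 and 1309 CPM in the P3 libraries and 7408, 8117 and 9723 CPM in the 3m libraries. The lowest 3m library was above the highest P3 library by a wide margin, and the log2 fold change was 3.47 (SE 0.36, adjusted p = 5.34e-06). *Lcat* was at 20.7, 13.4 and 8.71 CPM at P3 and 276, 189.8 and 278 CPM at 3m, again without overlap (log2 fold change 4.30, SE 0.30, adjusted p = 1.42e-07).

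*Apoe*, already one of the most abundant astroglial transcripts at P3, was at 14049, 9488 and 9331 CPM at P3 and 31110, 20346 and 18537 CPM at 3m. The replicate 1 library was highest within both ages, and the ages did not overlap. Its log2 fold change was 1.27 (SE 0.33, adjusted p = 0.0066), and it was 0.98 without 3m replicate 1, 0.99 without cycling cells and 0.93 (adjusted p = 0.088) with only cells of over 1000 genes and under 5% mitochondrial UMIs, each short of a call. That last filter kept 12, 137 and 88 astroglial cells at 3m, and under it *Clu* was at 3.29, *Lcat* at 4.04 and *Apod* at 5.62, each still called.

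*Apod* was at 0.448, 0.229 and 1.26 CPM at P3 and 12.96, 23.9 and 6.11 CPM at 3m (log2 fold change 4.72, SE 0.58, adjusted p = 2.31e-05). Its UMIs in 3m astroglia went with oligodendrocyte RNA. In 3m cells with at least 5 UMIs of the 6 oligodendrocyte markers, *Apod* had 14, 37 and 5 UMIs in 29, 169 and 59 cells, or 93.5, 59.6 and 16.9 CPM. In cells with fewer such UMIs it had 1, 7 and 4 UMIs in 184, 377 and 300 cells, or 0.992, 5.72 and 3.40 CPM. Without the former cells the log2 fold change fell to 2.56 (adjusted p = 0.016), while that of *Apoe* was 1.40, of *Clu* 3.65 and of *Lcat* 4.44.

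*Abca1* and *Lrp1* had like levels at both ages in this sum over all astroglia. *Abca1* was at 183, 107 and 117 CPM at P3 and 124, 161 and 130.4 CPM at 3m (log2 fold change 0.24, 95% interval -0.22 to 0.69, adjusted p = 0.38). *Lrp1* was at 157, 113 and 144 CPM at P3 and 101, 180.0 and 145 CPM at 3m (log2 fold change 0.25, 95% interval -0.20 to 0.70, adjusted p = 0.34). The ages overlapped for both, and the intervals leave out a 2-fold change in either direction. With replicates 2 and 3 alone the log2 fold changes were 0.58 (adjusted p = 0.014) and 0.54 (adjusted p = 0.023).

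*Abcg1* was rare. It had 305 UMIs in all P3 astroglia (2.24, 3.40 and 6.14 CPM) and 5 UMIs in all 3m astroglia (0, 2.71 and 0 CPM), a ratio of P3 over 3m of 3.52 with an exact counting interval of 1.49 to 10.9. The 5 UMIs were all in 3m replicate 2. The fit gave -1.63 (SE 0.83, adjusted p = 0.12). With the replicate number as a block it gave -1.65 (adjusted p = 0.044), which is a call.

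**Figure D2:**
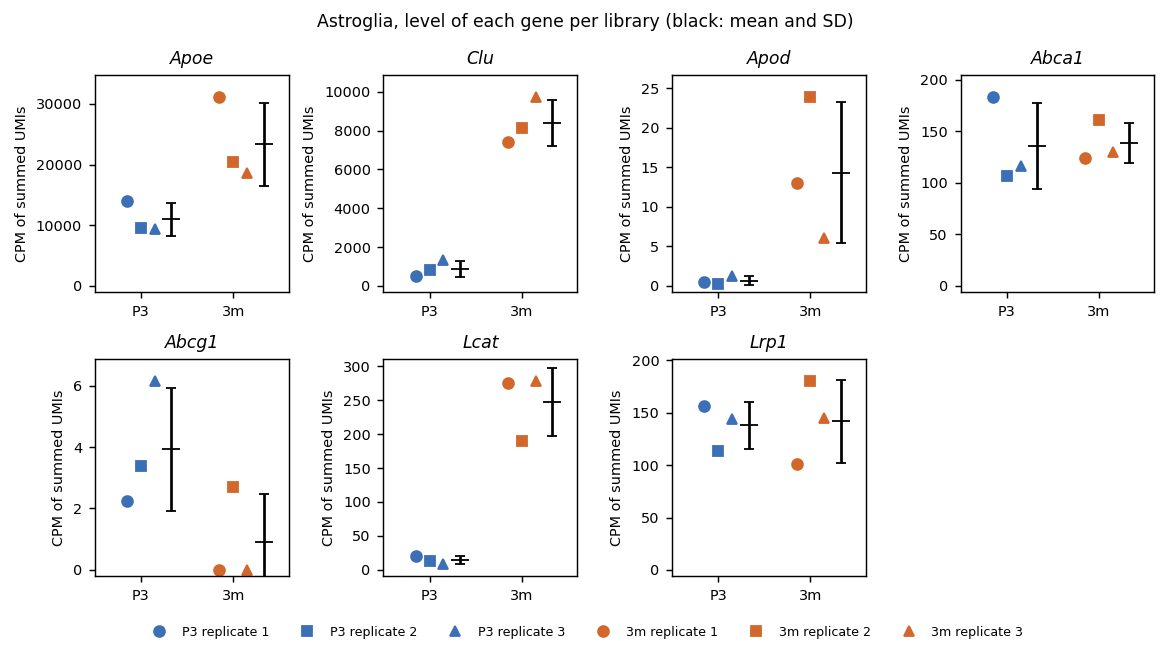
Level of each of the 7 genes in all astroglia of each library (CPM of summed UMIs, linear axes that start at 0), P3 in blue and 3m in orange, with the mean and SD in black. Apoe, Clu, Apod and Lcat do not overlap between ages, whereas Abca1, Abcg1 and Lrp1 do.

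Shares of single cells with a UMI gave the same split of the genes. After every cell was thinned to 2000 UMIs, with shallower cells left out, a *Clu* UMI was found in 99.1% ± 0.867 of 3m astroglia and 59.1% ± 10.2 of P3 astroglia (SD, n = 3 libraries each), and an *Lcat* UMI in 32.8% ± 3.19 and 2.93% ± 1.51. For both, and for *Apoe* (99.9% ± 0.143 against 96.4% ± 0.714), the libraries of the ages did not overlap, with p = 0.1 in the exact two-sided permutation test, which is the smallest p that 3 against 3 allows. *Abca1* was found in 23.2% ± 5.01 and 22.5% ± 5.31 (exact permutation p = 0.7) and *Lrp1* in 24.4% ± 4.74 and 24.9% ± 3.41 (exact permutation p = 0.9). In END_7, the type with the lowest *Apoe* level, 50.3%, 48.0% and 38.1% of thinned cells still held an *Apoe* UMI, so the *Apoe* share separates cells poorly, whereas 0.578%, 1.17% and 3.46% held a *Clu* UMI and 0%, 0% and 0.385% an *Lcat* UMI. The median END_7 cell had 22409 to 32603 UMIs before thinning. For *Abca1*, which END_7 holds at a level like that of astrocytes, the share there is no background.

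Cycling P3 astroglia had lower CPM of *Apoe*, *Clu*, *Lcat*, *Abca1* and *Lrp1* than the other P3 astroglia. Cells with a UMI in at least 2 of the proliferation genes *Mki67*, *Top2a* and *Cdk1* were compared with the other P3 astroglia within each library. Cycling cells numbered 335, 477 and 500, with 6186452, 8591503 and 6257731 UMIs in all. The others numbered 1650, 2626 and 3286, with 16140652, 22025637 and 18324686 UMIs. Cycling cells were thus deeper per cell, and the rule was applied without thinning. CPM is a share, so a lower value and more RNA of other genes cannot be told apart here. Of the 6 genes that could be tested, 5 were called lower in cycling cells, where 8.06% of 13306 genes were called lower and 8.94% higher. *Apoe* was at 4878, 3603 and 3248 CPM in cycling and 17565, 11784 and 11408 CPM in other cells (log2 fold change -1.70, SE 0.06, adjusted p = 1.62e-11). *Clu* was at 118, 242 and 352 CPM against 629, 1035 and 1636 CPM (-2.14, SE 0.06, adjusted p = 4.33e-12), and *Lcat* at 5.33, 4.31 and 1.598 CPM against 26.6, 17.0 and 11.1 CPM (-2.16, SE 0.16, adjusted p = 3.78e-08). In every library each of these was lower in the cycling cells. The 6 summed astrocyte markers were lower there too, at 2811, 2547 and 2651 CPM against 6860, 5707 and 6846 CPM, and their part in these differences was not tested.

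*Abca1* was at 81.0, 45.9 and 42.3 CPM in cycling and 222, 130.5 and 142 CPM in other P3 astroglia (-1.46, SE 0.07, adjusted p = 3.21e-10). *Lrp1* was at 76.0, 59.6 and 69.5 CPM against 188, 134 and 169.8 CPM (-1.16, SE 0.06, adjusted p = 9.02e-10), the smallest of the called differences. *Abcg1* was at 1.94, 1.51 and 3.36 CPM against 2.35, 4.13 and 7.09 CPM (-0.92, SE 0.26, adjusted p = 0.0068), below 2-fold and not a call. *Apod*, with 5, 3 and 14 UMIs in cycling cells, was too rare to test. Without the sub-clusters that the study placed on side branches, the values were -1.87 for *Apoe*, -2.29 for *Clu*, -2.49 for *Lcat*, -1.61 for *Abca1* and -1.23 for *Lrp1*.

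The sub-clusters and the pseudotime, which the study built with Slingshot from the same cells, show where within P3 these levels lay, again as a description. The sub-clusters 2, 6 and 8 had the lowest *Apoe* (3626, 3831 and 4021 CPM), *Clu* (91.1, 189.9 and 174 CPM) and, apart from 3m sub-cluster 16, *Abca1* (53.7, 59.7 and 49.8 CPM). Sub-cluster 11 had the highest P3 levels of *Apoe* (28366 ± 3564 CPM), *Clu* (2931 ± 1203 CPM) and *Lcat* (51.3 ± 12.1 CPM, n = 3 for each). It was at 306 ± 103 CPM for *Abca1* and 297 ± 61.4 CPM for *Lrp1*, and sub-cluster 1, mostly of P3 replicate 1, was at 302 ± 82.2 CPM and 269.9 ± 109 CPM. Of these, sub-cluster 1 was the higher for *Abca1* in P3 replicates 2 and 3 and for *Lrp1* in P3 replicate 3, from 49 to 56 UMIs. It had 523 ± 64.4 CPM of *Clu*.

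Along pseudotime the P3 libraries ran from bin 2 to bin 14 and the 3m libraries from bin 15 to bin 19. Between the pooled bins 2 to 10 and the pooled bins 13 and 14, *Apoe* was higher by 5.97, 5.44 and 6.16 times in the 3 P3 libraries, *Clu* by 12.5, 5.83 and 8.06 times, *Lcat* by 5.97, 8.54 and 16.2 times, *Abca1* by 3.27, 4.99 and 5.48 times and *Lrp1* by 2.83, 3.37 and 3.55 times. The early *Lcat* levels rest on 20, 22 and 5 UMIs. All 5 genes thus already had higher CPM late in P3 pseudotime, in all 3 libraries. Depth fell along the same course. In P3 replicate 1 the median cell had 11699 to 24030 UMIs in bins 3 to 10 and 9470 in bin 13. In P3 replicate 2 it had 12075 to 21228 in bins 2 to 10 and 8031 in bin 13. These ratios compare shares of the captured RNA and not UMIs per cell. The course was not a steady rise. *Apoe*, for example, was at 4394 ± 1330 CPM in bin 7 and 1826 ± 75.3 CPM in bin 10. It then passed through 5456 ± 780 CPM in bin 12 to 20372 ± 3021 CPM in bin 14.

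Past bin 14 the genes parted. *Clu* went from 871, 1556 and 2116 CPM in bin 14 to 8416 ± 577 CPM in bin 16 and 10903 ± 3054 CPM in bin 18, and *Lcat* from 27.4 ± 6.94 CPM to 291 ± 66.8 CPM in bin 18. *Apoe* was at 26067 ± 5504 CPM in bin 18, a range that lies partly within that of bin 14. *Abca1* stood at 231 ± 25.4 CPM in bin 14 and 119 ± 5.10 CPM in bin 18, and *Lrp1* at 224 ± 26.2 CPM and 122 ± 27.1 CPM. For these the lowest bin 14 library (204 CPM of *Abca1*, 209 CPM of *Lrp1*) was above every 3m library in bins 16 to 19, where *Abca1* ranged from 94.3 to 145 CPM and *Lrp1* from 65.6 to 146 CPM. The step from bin 14 to bin 16 is also the step from P3 to 3m libraries, and pseudotime and age cannot be told apart there.

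**Figure D3:**
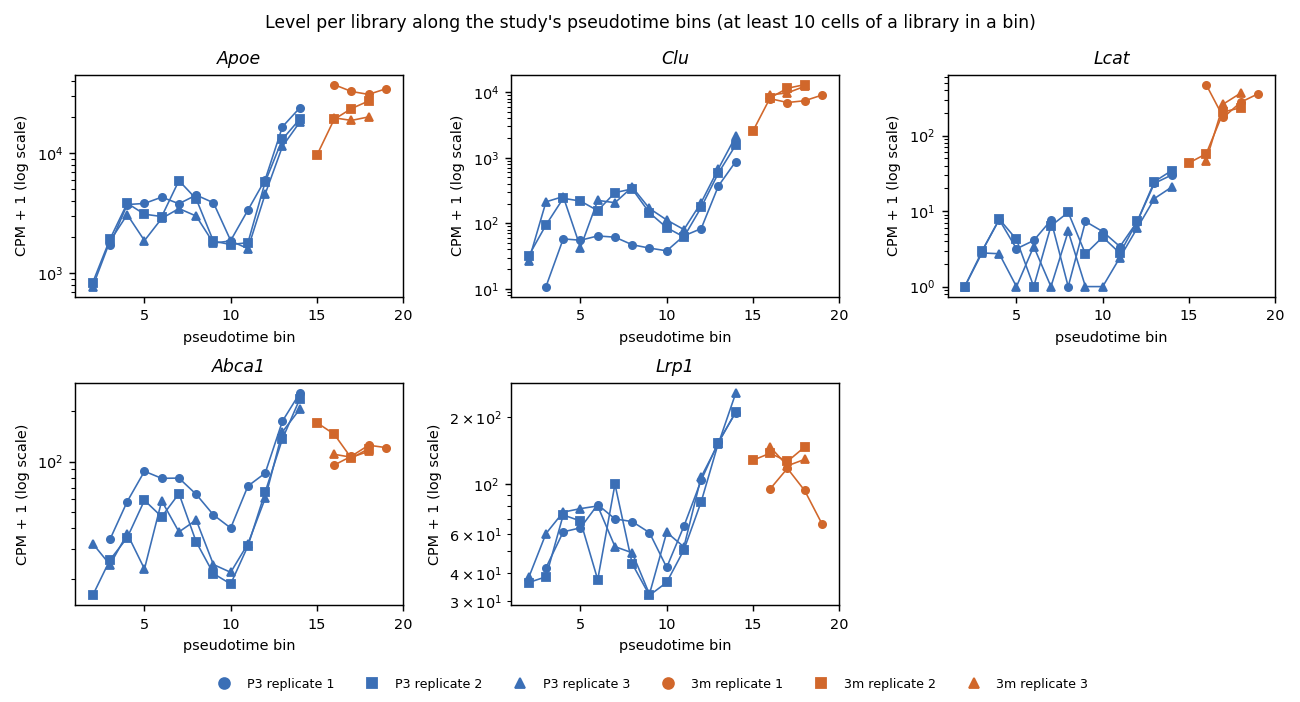
Level of 5 of the genes along the study's pseudotime bins (CPM + 1, log scale), with a line per library, P3 in blue and 3m in orange, for bins with at least 10 cells of the library. All 5 are higher in bin 14 than in the early bins of the P3 libraries. Clu and Lcat are higher again in the 3m libraries, while Abca1 and Lrp1 are below their bin 14 levels of 231 and 224 CPM.

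A sum over all astroglia mixes sub-clusters whose shares differ between ages, so the age comparison was repeated within groups of sub-clusters, an analysis added after the data were seen. The study's main lineage includes sub-clusters 0 of P3 and 7 and 14 of 3m. It describes 1, 9 and 11 of P3 as very similar to 0 and lying among telencephalic reference cells. All of these are called main-branch here. The study places 3, 4, 5, 10, 12 and 15 of P3 and 13 and 16 of 3m on side branches. These clustered with non-telencephalic reference cells, and it gives them as a possible admixture from neighbouring regions. The markers did not follow these names throughout. Multiciliated cell markers were at 161 to 2677 CPM in sub-clusters 3, 4, 5, 12 and 15, and at 53.8 CPM in sub-cluster 10, against 5.36 to 30.4 CPM in the others. *Agt*, which encodes angiotensinogen, was at 917 CPM in sub-cluster 11, 1104 CPM in 13 and 265 CPM in 16, and at most 60.7 CPM elsewhere, and *Lhx2*, a forebrain transcription factor, was at 22.2, 31.2 and 44.2 CPM there and at least 75.6 CPM elsewhere. By *Agt* and *Lhx2* the 3m side-branch cells resembled P3 sub-cluster 11 and not the P3 side branches. Their multiciliated markers were low, as in every sub-cluster outside the P3 side branches, and do not point to sub-cluster 11 in particular. *Crym* went the other way. It was at 17.5 CPM in sub-cluster 11, 295 CPM in 13 and 515 CPM in 16, and at 52.0 to 6155 CPM in the P3 side branches. These single genes were picked after the data were seen, so the resemblance is a description. The groups are therefore named by number, and both pairings are given.

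From sub-clusters 0, 1 and 9 at P3 to 7 and 14 at 3m, *Clu*, *Lcat* and *Apod* were called higher, where 14.1% of 11680 genes were, and none of the 6 that could be tested was called lower, where 12.2% were. *Clu* was at 614, 985 and 1448 CPM at P3 and 7618, 11263 and 10629 CPM at 3m (log2 fold change 3.50, SE 0.31, adjusted p = 1.19e-08), and *Lcat* at 30.7, 28.0 and 17.8 CPM and 278, 186 and 284 CPM (3.51, SE 0.22, adjusted p = 4.03e-11). *Apoe* was at 19571, 15507 and 15199 CPM and 31940, 23529 and 19272 CPM (0.79, SE 0.28, adjusted p = 0.025), under 2-fold and with overlap of the lowest 3m and the highest P3 library.

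In the same cells *Abca1* and *Lrp1* had lower CPM in every 3m library than in any P3 library, unlike in the sum over all astroglia. *Abca1* was at 243, 175 and 183 CPM at P3 and 120.4, 114 and 109 CPM at 3m (-0.58, SE 0.17, 95% interval -0.93 to -0.23, adjusted p = 0.0077). *Lrp1* was at 200.2, 172 and 213 CPM and 92.1, 129 and 127 CPM (-0.51, SE 0.18, 95% interval -0.88 to -0.15, adjusted p = 0.021). Both adjusted p-values were under 0.05 and both differences below 2-fold, so neither is a call. *Abcg1* had 91 UMIs in sub-clusters 0, 1, 9 and 11 at P3 and none in 7 and 14, where it was at least 3.04-fold lower, with 3 UMIs over the group as the floor.

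From sub-cluster 11, which had the highest P3 levels of *Apoe*, *Clu* and *Lcat*, to 13 and 16 only *Lcat* and *Apod* were called. *Apoe* was at 32446, 25860 and 26792 CPM at P3 and 16296, 17142 and 14686 CPM at 3m, lower in every 3m library, with a log2 fold change of -0.64 (95% interval -1.45 to 0.17, adjusted p = 0.27). *Clu* was at 1756, 2878 and 4160 CPM and 3663, 4761 and 4874 CPM (0.79, adjusted p = 0.091). *Lcat* was at 65.0, 47.2 and 41.8 CPM and 228, 198 and 245 CPM (2.30, SE 0.25, adjusted p = 6.72e-09), where 9.5% of 7274 genes were called higher and 9.18% lower. *Apod* had no UMI in sub-cluster 11 and 10, 21 and 4 UMIs in 13 and 16. *Abca1* (-0.25, 95% interval -0.78 to 0.28) and *Lrp1* (-0.08, 95% interval -0.58 to 0.43) were not called. The 3m cells of these sub-clusters numbered 17, 257 and 49, and their summed oligodendrocyte markers were at 23964, 4011 and 3229 CPM. Sub-cluster 16 alone had 16516 CPM of these markers. In sub-cluster 13, with 1714 CPM, *Apoe* was at 17689 ± 2118 CPM, *Clu* at 5292 ± 27.3 CPM and *Lcat* at 259.7 ± 23.9 CPM (n = 2 libraries).

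The difference between these age changes was tested with the library as a block. With sub-clusters 0, 1, 9, 7 and 14 against 11, 13 and 16, the age change was larger in the former for *Clu* by 2.72 on the log2 scale (SE 0.21, adjusted p = 4.76e-12), *Apoe* by 1.42 (SE 0.23, adjusted p = 1.6e-05) and *Lcat* by 1.07 (SE 0.22, adjusted p = 0.00042), where 3.41% of 9173 genes were called in this direction and 4.3% in the other. For *Abca1* (-0.37, 95% interval -0.76 to 0.02, adjusted p = 0.25) and *Lrp1* (-0.37, 95% interval -0.75 to 0.02, adjusted p = 0.24) no difference was called. With the study's own placement the values were 1.74 for *Clu* (adjusted p = 3.19e-06), -3.06 for *Lcat* (adjusted p = 4.25e-10), -1.73 for *Abca1* (adjusted p = 4.99e-08), -1.68 for *Lrp1* (adjusted p = 6.38e-08) and -0.23 for *Apoe* (adjusted p = 0.63), where 8.27% of 10150 genes were called higher and 8.55% lower. Only *Clu* kept its call and direction under both pairings, and *Lcat* and *Apoe* changed sign. Both pairings use the same 3m cells, so they are not independent of each other. Sub-cluster 11 was set with 13 and 16 after the data were seen. It had the highest P3 levels of *Clu*, *Apoe* and *Lcat*, so this choice favours a larger value for these genes. The sub-clusters were also built from the same expression values. The p-values of both pairings do not account for this. In the P3 side branches *Lcat* rested on 4, 17 and 21 UMIs.

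**Figure D4:**
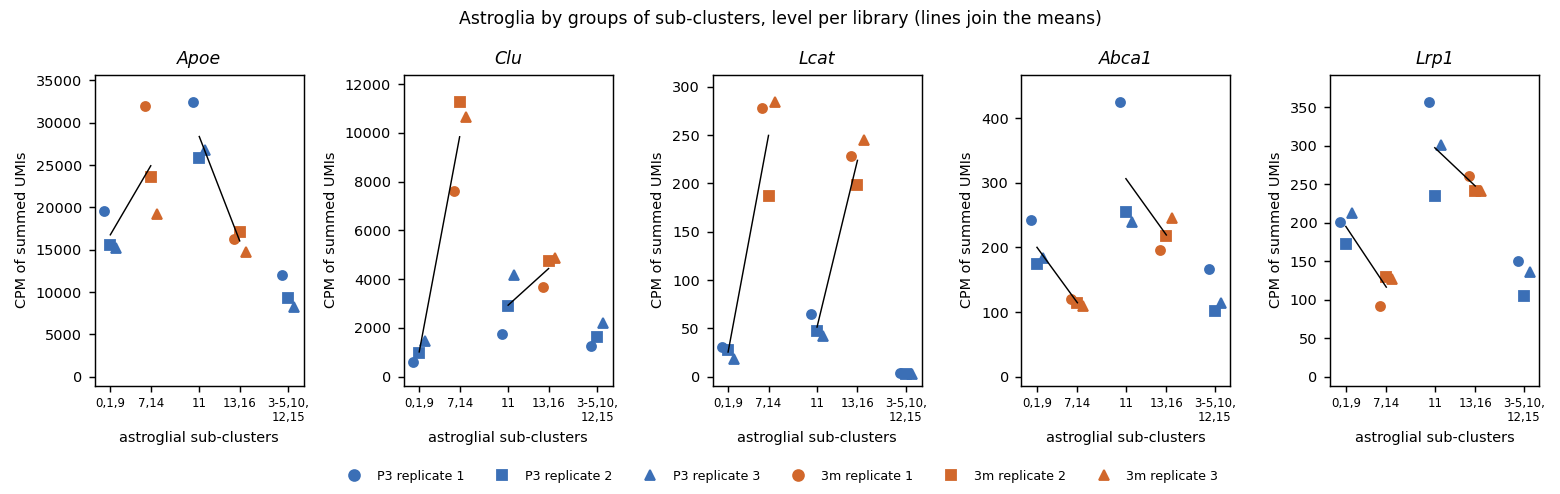
Level of 5 of the genes (CPM of summed UMIs, linear axes that start at 0) in groups of astroglial sub-clusters, 1 point per library, P3 in blue and 3m in orange. Lines join the means of the P3 and 3m groups paired in the text, and the last column holds the P3 side-branch sub-clusters. Clu and Lcat are far higher in 7, 14 than in 0, 1, 9, Abca1 and Lrp1 are lower there without overlap, and Apoe is lower in 13, 16 than in 11.

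**Figure D5:**
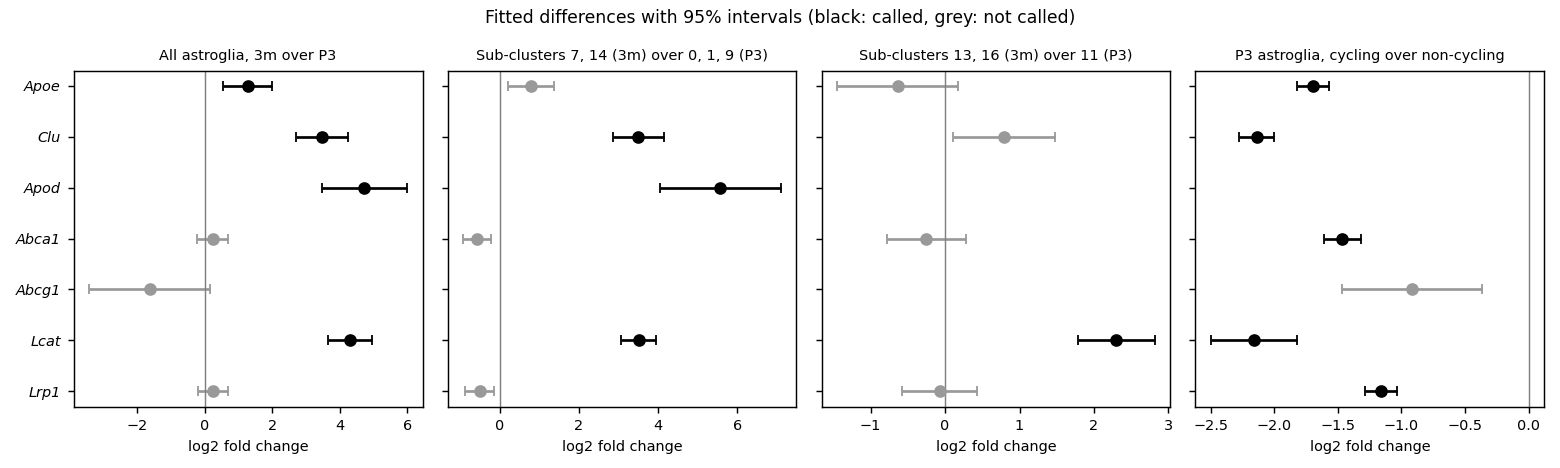
Fitted log2 fold changes with 95% intervals for all astroglia, for both pairings of sub-clusters and for cycling P3 astroglia, in black where called and grey where not. The x axes differ between panels, and genes with no fit or with 3 or fewer UMIs in a group are left out. Abca1 lies at 0.24 in all astroglia and at -0.58 in sub-clusters 7, 14 over 0, 1, 9.

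Microglia form a single annotated cluster with at least 10 cells in every library (34, 44 and 46 at P3, 20, 23 and 17 at 3m). Of 2679 genes tested, 6.68% were called higher and 3.43% lower at 3m. Of the members only *Apod* was called. *Apoe* was at 14829, 8987 and 9268 CPM at P3 and 15069, 9242 and 11631 CPM at 3m (log2 fold change 0.23, 95% interval -0.37 to 0.84). These sums rest on few 3m cells: after thinning to 2000 UMIs, 3 cells held 74.4%, 64.8% and 94.4% of the *Apoe* UMIs of the 3m microglia, and the median cell had 1, 3 and 1.5 *Apoe* UMIs against 22, 14 and 16 at P3. *Abca1* was at 217, 176 and 145 CPM and 296, 179 and 149.8 CPM (0.38, 95% interval -0.27 to 1.02), *Abcg1* at 64.1, 60.7 and 128 CPM and 109, 79.4 and 56.2 CPM (0.15, 95% interval -0.73 to 1.03) and *Lrp1* at 182, 213 and 189.8 CPM and 158, 189 and 206 CPM (0.01, 95% interval -0.55 to 0.58). The ages overlapped for each of these 4 genes.

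*Apod* had no UMI in P3 microglia and 21, 8 and 14 UMIs in 3m microglia, at least 50.5-fold higher with 3 UMIs over the P3 group as the floor. The UMIs lay in 5, 3 and 2 cells. Oligodendrocyte markers summed to 2419, 1757 and 169 CPM in the same 3m microglia and 24.9, 42.5 and 79.4 CPM at P3, and their part in the *Apod* value was not tested. *Clu* was at 28.5, 15.2 and 173 CPM at P3 and 128, 218 and 18.7 CPM at 3m (1.07, 95% interval -0.47 to 2.61). These levels rest on 8, 5 and 50 UMIs at P3 and 13, 22 and 1 at 3m. Without P3 replicate 3 the *Clu* value was 2.67 (adjusted p = 0.024), which is a call. Astrocyte markers summed to 680, 140 and 994 CPM in the P3 microglia and 751, 427 and 112 CPM at 3m. Their part in the *Clu* value was not tested. *Lcat* had 1 UMI in all microglia.

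The age change of astroglia was larger than that of microglia for *Apoe*, by 1.43 on the log2 scale (SE 0.28, adjusted p = 0.00024), and for *Clu*, by 2.55 (SE 0.50, adjusted p = 0.00017), in a test of the cell type by age term with the library as a block, where 5.15% of 9285 genes were called in this direction and 1.86% in the other. The *Apoe* value uses the microglial sums carried by few 3m cells. *Abca1* (0.26, 95% interval -0.39 to 0.91), *Lrp1* (0.61, 95% interval -0.04 to 1.26) and *Abcg1* (-1.34, 95% interval -3.10 to 0.42) were not called. The median gene had 0.36 in this fit and -0.10 without scaling. The *Apoe* value missed the call without scaling (0.94, adjusted p = 0.0045) and without the block (1.44, adjusted p = 0.12). The *Clu* value missed it with DESeq2 (2.45, adjusted p = 0.17), without the block (2.77, adjusted p = 0.054) and without P3 replicate 3 (1.55, adjusted p = 0.18).

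Around the members, a list of 56 further genes of lipid transport was followed by role. In astroglia 46 were tested, of which 14 were called higher at 3m, 6 lower and 26 neither, where 15.8% of all genes were called higher and 16.3% lower, with a median log2 fold change of 0.72 beside -0.04 over all genes. The astroglial sums held 77526661 UMIs at P3 and 4473981 at 3m, so UMI totals are not comparable between ages without scaling. Oligodendrocyte markers were higher in the same 3m sums (852 to 2127 CPM against 126 to 146 CPM), and their part in the list's values was not tested. Among ABC transporters 5 of 9 were called higher and 1 lower. *Abca5* (2.53), *Abca7* (2.32, from 88 and 22 UMIs) and *Abca2* (2.12), transporters linked to sterol or phospholipid, rose. *Abcg2* (-3.37), an efflux pump for many compounds, fell from 12.5, 9.34 and 10.2 CPM to 0, 0.542 and 2.04 CPM. It had 814 and 4 UMIs, a ratio of P3 over 3m of 11.7 with an exact counting interval of 4.57 to 43.2.

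Among carriers 2 of 6 were called higher, *Apoa1* (4.38) and *Ptgds* (3.08). *Apoa1*, the main protein of high-density lipoprotein, had 55 UMIs at P3 and 57 at 3m, or 0.403, 0.621 and 1.098 CPM against 21.6, 10.8 and 8.15 CPM. *Ptgds*, a lipocalin with prostaglandin synthase activity, had 6.09, 11.8 and 12.2 CPM against 65.7, 93.8 and 63.8 CPM. Of the enzymes 2 of 6 were higher and 2 lower. The lower ones were lipases of the vessel wall, *Lipg* (endothelial lipase, 19.4, 16.7 and 18.3 CPM at P3 and 1 UMI in all at 3m, log2 fold change -6.10) and *Lpl* (lipoprotein lipase, 323 UMIs and none, at least 6.21-fold lower).

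Of the receptors 2 of 13 were higher and 2 lower, shares near those of all genes. The lower ones were *Lrp2* (megalin, 291 UMIs and none, at least 5.60-fold lower) and *Scarb1* (-2.11), a receptor for high-density lipoprotein, which was at 21.9, 20.9 and 23.4 CPM at P3 and 6.05, 4.88 and 2.72 CPM at 3m. The sterol-sensing nuclear receptors, partners and targets had 2 of 9 higher and 1 lower, and of the genes for lysosomal sterol exit 1 of 3 was higher. In cycling against other P3 astroglia 2 of 46 genes of the list were called higher and 11 lower, where 8.94% of all genes were called higher and 8.06% lower, with a median of -0.50 beside -0.03 over all genes.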

How the data were processed

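Cells of 6 libraries were processed by the authors with Cell Ranger against mm10 and with Seurat (3.1.1 per the labels), and kept with over 500 genes and under 10% mitochondrial UMIs. The authors deposited raw UMI counts per gene and barcode with their cell annotation, in which the pseudotime is a Slingshot score. Counts were summed per library over astroglia, microglia or sub-clusters and tested with edgeR 4.0.16 in R 4.3.3 (quasi-likelihood test, TMM scaling, filterByExpr, Benjamini-Hochberg over all genes tested, two-sided). A call needed an adjusted p of at most 0.05 and a 2-fold difference. DESeq2 1.42.0, other scalings, other filters and each library left out were tried as alternatives. Named besides the 7 genes were the 10 called genes of the 56-gene list with the largest differences and the genes most like each member. Sums of whole libraries held 5471573 to 37795021 UMIs. The exact counting intervals of UMI ratios and the floors cover counting error only. Intervals of fitted fold changes come from the quasi-likelihood fit, which includes the spread between libraries. The members and lists were chosen with earlier results of these data known. The scripts were tested on simulated counts. Doublets were not called here. Each library came from pooled animals, and p-values measure the spread between these libraries. Same-numbered astroglial libraries deviated together (r = 0.35, 0.15 and 0.11, against -0.24 to 0.17 for different numbers, so that only replicate 1 stood out), which met the set minimum of 0.1, so the replicate block is given where it changed a call.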

Additional observations from a re-analysis of the deposited data

Results flagged for a closer look

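The age change of 2 genes differed between astroglia and microglia, tested with a cell type by age term: *Apoe* (1.43 on the log2 scale) and *Clu* (2.55). Both missed the call in other settings. These were no scaling and no block for *Apoe*, whose 3m microglial sums rest on few cells. For *Clu* they were DESeq2, no block and P3 replicate 3 left out. The age change of 4 genes differed between main-branch and side-branch astroglia as the study placed them: *Clu* (1.74), *Abca1* (-1.73), *Lcat* (-3.06) and *Lrp1* (-1.68). With sub-cluster 11 set with 13 and 16 the values were 2.72, -0.37, 1.07 and -0.37. That sub-cluster had the highest P3 *Clu* and *Lcat* levels, which favours larger values for them. The P3 side-branch sub-clusters 3, 4, 5, 12 and 15 held 161 to 2677 CPM of multiciliated cell markers. The part of these markers in the differences was not tested.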

How the results depend on the processing

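Counts of called genes moved by over 1.5 times in a few settings. In astroglia 4344 genes were called, against 2732 in sums thinned to equal depth, 2649 in side-branch sub-clusters and 1359 in sub-clusters 11, 13 and 16. In microglia 271 were called, against 513 without a filter and 125 to 255 with a library left out (125 without 3m replicate 1 and 159 without 3m replicate 2). For the cell type by age term 651 were called, against 398 with DESeq2 and 430 to 651 with a library left out, the lowest without 3m replicate 2. For the branch by age term 1707 were called, against 707 with sub-cluster 11 set with 13 and 16. Without scaling the share of calls that were higher went from 49.3% to 38.6% in astroglia, from 66.1% to 52.0% in microglia and from 73.4% to 41.8% for the cell type by age term.

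Signs changed where the main value was small, between all astroglia and groups of sub-clusters, and between pairings of sub-clusters. The changed value was not always near 0. In astroglia *Abca1* was -0.073 without the side-branch sub-clusters, -0.021 without cycling cells, -0.63 in main-branch cells, -0.58 in sub-clusters 0, 1, 9, 7 and 14 and -0.25 in 11, 13 and 16. *Lrp1* was -0.083 without the side-branch sub-clusters, -0.57 in main-branch cells, -0.51 in sub-clusters 0, 1, 9, 7 and 14 and -0.075 in 11, 13 and 16, where *Apoe* was -0.64. In microglia *Apoe* was -0.048, *Abcg1* -0.12 and *Lrp1* -0.27 without a filter, *Abcg1* -0.30 in replicates 2 and 3 and *Lrp1* -0.11 without scaling. *Abca1* was -0.20 for the cell type by age term without scaling. For the branch by age term *Apoe* was 1.42 and *Lcat* 1.07 with sub-cluster 11 set with 13 and 16. With a library left out, *Lrp1* in astroglia ranged from -0.018 to 0.40, microglial *Apoe* from -0.030 to 0.50, *Abca1* from -0.035 to 0.53, *Abcg1* from -0.17 to 0.27 and *Lrp1* from -0.11 to 0.076, and *Abca1* for the cell type by age term from -0.0050 to 0.76. The difference in the share of cells with an *Abca1* UMI was -1.94 percentage points at 1000 UMIs, -17.0 unthinned and -2.16 to 3.69 with a library left out, and that for *Lrp1* -2.59 to 2.08. The cause of these shifts was not tested.

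The replicate block turned *Abcg1* in astroglia into a call (-1.65, adjusted p = 0.044) and changed no other call of a member there. In microglia, whose same-numbered libraries did not deviate together (r = 0.16, -0.03 and -0.01), it gave 277 called genes. In cycling against other P3 astroglia *Abcg1* was called without scaling (-1.01) and without P3 replicate 1 (-1.11), and *Lrp1* was -0.99 with cycling set by 1 of the 3 genes. Depth limits *Abcg1* and *Apod* in astroglia, the microglial values and the 17 cells of 3m replicate 1 in sub-clusters 13 and 16.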

Other observations

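Microglia of the 2 ages had like *Apoe* sums but different cells. Thinned to 2000 UMIs, the P3 microglia had a median of 22, 14 and 16 *Apoe* UMIs per cell in the 3 libraries, with 0, 2 and 0 cells without one among 27, 43 and 35. The 3m microglia had a median of 1, 3 and 1.5 UMIs, with 7, 7 and 6 cells without one among 18, 19 and 16. The highest 3m cells had 177, 97 and 111 UMIs, above all P3 cells, whose highest were 80, 57 and 73. The top 3 cells of a library held 74.4%, 64.8% and 94.4% of its microglial *Apoe* UMIs at 3m and 28.3%, 20% and 24.0% at P3. The means per cell were 28.6, 20.2 and 19 UMIs at 3m and 26, 18.1 and 17.8 at P3. The medians did not overlap between ages, but 3 libraries against 3 allow no p below 0.1 in an exact permutation test, and what sets the high 3m cells apart was not tested.

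*Apod* was also high in the few 3m cells of the pericyte cluster, with 96, 163 and 247 UMIs in 6, 4 and 6 cells, too few for the comparisons above.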
